A study of Mus musculus with 6 samples.

Results

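The genes described here encode 51 enzymes that make, recycle or break down pyrimidine and purine nucleotides. They were chosen by name from the 31950 genes of the mouse liver expression table. The rule used no expression value, but earlier results of these data were known when the genes were chosen. All 51 were found in the table. They comprise the de novo pyrimidine and purine routes, CTP synthesis, salvage enzymes and nucleotide kinases, the supply of deoxynucleotides for DNA, breakdown, and the folate enzymes that deliver carbon units to purines and thymidylate. RNA was sequenced from the livers of C57BL/6 mice labelled as 8 weeks old, with 3 WT and 3 β-cateninΔ(ex3)/+ livers and 1 library per liver. β-cateninΔ(ex3)/+ livers carry a deletion of exon 3 in 1 allele of Ctnnb1, which removes the phosphorylation sites that mark β-catenin for degradation, so that the protein accumulates and activates transcription with TCF/LEF factors. The study deleted the exon in liver in several ways, with a constitutive Alb-Cre, with Cre-adenovirus, and with a tamoxifen-inducible Alb-Cre for its metabolic work. The labels do not name the Cre used for these 6 livers, and whether the WT livers received tamoxifen is not given in the sources used here. The question is how the RNA of each nucleotide enzyme differs between the groups. Values are FPKM, the fragments of a gene scaled to transcript length and to all mapped fragments of the library. A whole liver holds several cell types, and in such bulk RNA fewer cells of a type cannot be told apart from less RNA per cell.

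Cells obtain nucleotides by building the rings from amino acids, bicarbonate and folate-bound carbon, or by salvage of bases and nucleosides. The liver makes nucleotides for itself and for other tissues and is also a main site of their breakdown, in which purines end as uric acid and, in mice, as allantoin, and pyrimidines end as β-alanine and β-aminoisobutyrate. Genes for DNA precursors such as Tyms, Tk1 and Rrm2 rise in S phase in dividing cells and are low in resting hepatocytes.

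The genotype cannot be read from the level of Ctnnb1, since values are per gene and not per exon. Of 16 known β-catenin target genes 9 were higher in β-cateninΔ(ex3)/+ livers by both thresholds given below, and 0 were lower. This is 56.2% higher, against 8.17% of all genes tested. By the adjusted p alone 12 were higher and 3 were lower, namely Cyp2e1, Lect2 and Tcf7, with log2 differences of -0.23, -0.12 and -0.39. With median-ratio scaling, and also in quantile-normalized values, 8 were higher by both thresholds. The list was chosen with earlier results of these data known, so these counts are no independent test of the genotype. The groups also differed in ways the labels do not give. Xist, the RNA that coats the inactive X chromosome, was between 20.3 and 22.2 FPKM in WT livers and at most 0.0146 FPKM in β-cateninΔ(ex3)/+ livers. The Y-linked genes Ddx3y, Eif2s3y, Kdm5d and Uty were at most 0.0169 FPKM in WT livers and between 0.549 and 9.94 FPKM in β-cateninΔ(ex3)/+ livers. Genes of the young liver went with the groups as well, since H19 averaged 2353 FPKM in WT and 0.0260 FPKM in β-cateninΔ(ex3)/+ livers, Igf2 829 FPKM in WT and 0 in each β-cateninΔ(ex3)/+ liver, and Afp 608 and 2.55 FPKM. Of 12 genes tested on that list 10 were lower in β-cateninΔ(ex3)/+ livers by the same thresholds and 1, Scd2, was higher, at 0.0517 FPKM in WT and 2.20 FPKM in β-cateninΔ(ex3)/+ livers. H19, Igf2 and Afp are silenced in the liver soon after birth, so these values in WT livers go against an age of 8 weeks. Genotype, sex and the state of these young-liver genes therefore cannot be told apart for the β-catenin target genes or for any gene below. No left-out liver removes this. Marker lists of other cells also differed in summed FPKM, with erythroid genes at 3329 to 3672 in WT and 1817 to 1881 in β-cateninΔ(ex3)/+ livers, leukocyte genes at 433 to 458 and 328 to 338, and stellate, endothelial and bile duct genes at 203 to 207 and 96.6 to 102. Within the leukocyte list the neutrophil gene S100a9 went from a mean of 173 to 18.3 FPKM, whereas the macrophage genes Clec4f and Cd68 went the other way, from 48.5 to 158 FPKM and from 15.8 to 30.3 FPKM, and by the adjusted p alone 7 genes of that list were higher and 7 lower. Hepatocyte markers such as albumin dominated all libraries, at 96518 to 100776 summed FPKM in WT and 54328 to 55093 in β-cateninΔ(ex3)/+ livers. Single hepatocyte markers went both ways. Of 14 tested 3 were higher and 10 lower by the adjusted p alone, and 2 were higher and 3 lower by both thresholds. The part of these differences in the results below was not tested.

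The levels of the 51 genes spanned more than 3 orders of magnitude. Nme2, a nucleoside diphosphate kinase, was highest, at 191 FPKM in WT livers and 196 FPKM in the mutant livers. Uox, the urate oxidase that takes uric acid on to allantoin, came next in both groups, with 86.6 and 90.4 FPKM. In each group 17 genes had a mean of at least 10 FPKM, and 11 genes had a mean under 2 FPKM in both. Salvage, breakdown and folate genes held most of the high places, whereas genes at the entry of the de novo routes were low, Cad at 1.02 and Ppat at 2.07 FPKM in WT livers. Summed over the 51 genes the level was 811 to 814 FPKM in WT and 933 to 958 FPKM in β-cateninΔ(ex3)/+ livers. The plot of the levels by liver shows each of these values.

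**Figure D1:**
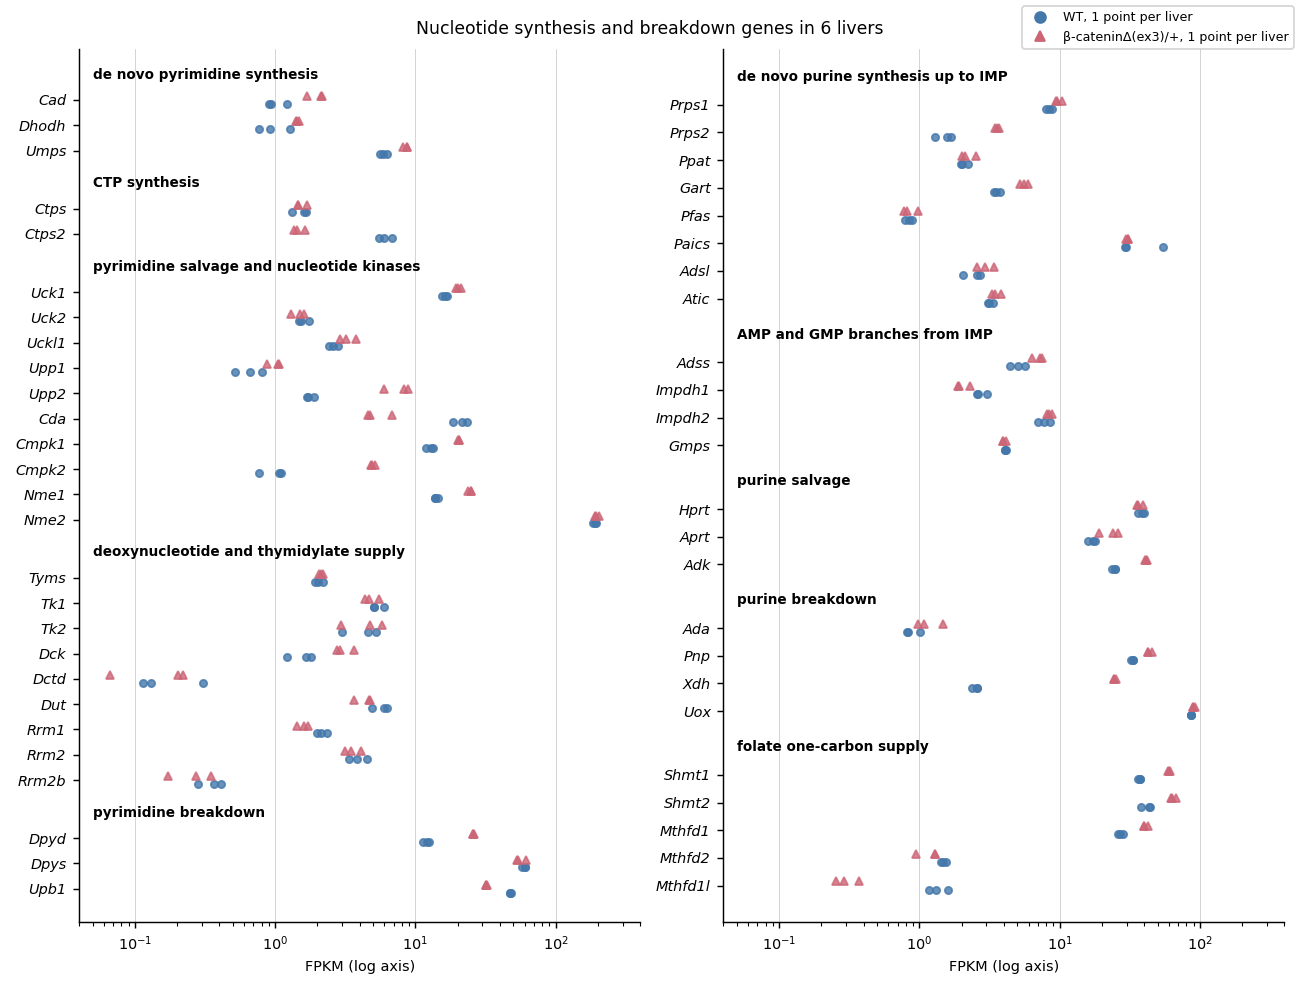
FPKM on a log axis of each of the 51 genes in each WT liver (circles) and each β-cateninΔ(ex3)/+ liver (triangles), grouped by role. Xdh, Upp2 and Cmpk2 lie apart to the right in β-cateninΔ(ex3)/+ livers, Cda and Ctps2 lie apart to the left, and WT replicate 2 lies apart from all other livers for Paics.

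Genes with a mean of at least 0.5 FPKM over the 6 livers were tested with limma on the log2(FPKM + 1) scale. All differences called log2 below are on this scale, β-cateninΔ(ex3)/+ over WT, and for genes at low levels they are smaller than the ratio of the FPKM. Of the 51 genes 49 passed the filter, and Dctd and Rrm2b did not. With an adjusted p under 0.05 and a change of at least 2-fold, Xdh, Upp2, Cmpk2 and Dpyd were higher in β-cateninΔ(ex3)/+ livers, 4 of 49 or 8.16%, against 8.17% of all 13243 genes tested. Cda and Ctps2 were lower, 2 of 49 or 4.08%, against 4.52% of all genes tested. In either direction the share was 12.2% of the 49 genes and 12.7% of all genes. With the adjusted p alone, 22 of the 49 genes were higher, or 44.9% against a background of 37.4%, and 6 were lower, or 12.2% against a background of 19.6%. This split of 22 and 6 became 17 and 13 with median-ratio scaling and 16 and 14 in quantile-normalized values, which moved the median log2 difference of all genes by -0.12 and -0.16. Under both scalings Nme2, Dut, Dpys, Gmps, Hprt, Uox and Mthfd2, which did not pass in the FPKM as deposited, had an adjusted p under 0.05 and were lower, as was Tk1 in quantile-normalized values. Together these 28 genes were 57.1% of those tested, against 57.0% of all genes. The groups did not overlap for 32 of the 49 genes, or 65.3%, against 66.0% of all genes. The median log2 difference was 0.20 over the 49 genes and 0.14 over all genes tested, and in quantile-normalized values -0.053 and -0.020. These shares are near the background, and the text that follows is on single enzymes and on the balance between them, not on the list as a whole. The smallest p that an exact two-sided permutation test of 3 livers against 3 can give is 0.1, which is the value of each gene whose groups do not overlap. Nothing in the labels says that the livers came from separate cages or litters, so the p-values measure the spread between these livers.

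**Figure D2:**
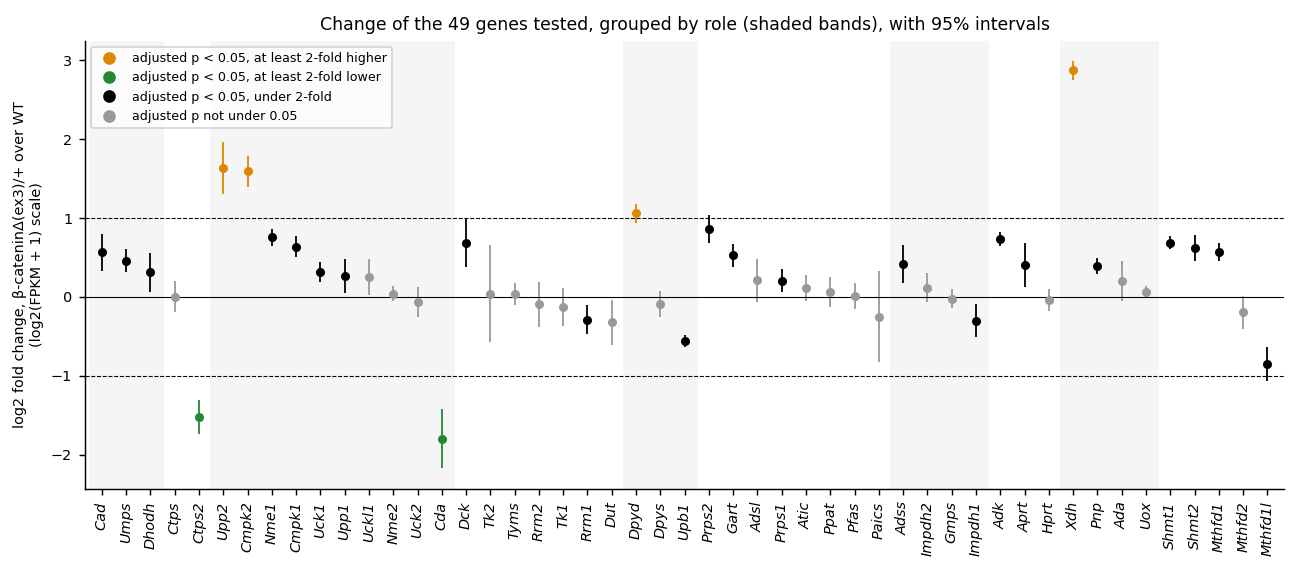
log2 fold change (β-cateninΔ(ex3)/+ over WT, log2(FPKM + 1) scale) of the 49 genes tested, with 95% intervals from limma, in shaded bands by role. Points beyond the dashed lines are past 2-fold: Xdh at 2.87, Upp2 at 1.64, Cmpk2 at 1.59, Dpyd at 1.06, Ctps2 at -1.52 and Cda at -1.80.

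RefSeq promoters (build GRCm38.p6) of 4 of the 6 genes past both thresholds are shown because TCF/LEF factors are the DNA-binding partners of β-catenin, and the promoters of Upp2 and Dpyd hold letters of that type. Of the other 2 genes past both thresholds, Xdh had no entry in the table, and Ctps2 had 3 promoters, none with such letters, so that 2 of the 5 genes with an entry held them. Of all 32851 promoters 7.48% held such letters, counted per promoter and not per gene. The letters searched, in the 250 bases before each start and on both strands, were CTTTGAT and its variant with a last base of A, CTTTGAA. Stretches that lie in transcripts of the gene itself are left out. The stretch of Upp2 is cut to 30 bases because a GENCODE transcript already runs through that window. Capitals mark the TCF/LEF-type match, and Cmpk2 and Cda, which hold none, are shown for comparison.
Upp2, chr2:58755040-58755069, plus strand: acaggtgctgggATCAAAGttaacaagcta
Dpyd, chr3:118561930-118562128, plus strand: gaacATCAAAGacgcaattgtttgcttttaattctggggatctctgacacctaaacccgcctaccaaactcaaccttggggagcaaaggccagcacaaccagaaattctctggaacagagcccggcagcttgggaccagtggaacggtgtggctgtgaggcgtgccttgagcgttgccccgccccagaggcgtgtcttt
Cmpk2, chr12:26468965-26469203, plus strand: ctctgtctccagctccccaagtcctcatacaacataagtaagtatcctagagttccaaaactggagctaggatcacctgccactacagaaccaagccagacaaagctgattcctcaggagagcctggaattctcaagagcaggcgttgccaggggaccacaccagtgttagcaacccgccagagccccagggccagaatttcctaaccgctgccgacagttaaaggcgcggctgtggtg
Cda, chr4:138367993-138368205, minus strand: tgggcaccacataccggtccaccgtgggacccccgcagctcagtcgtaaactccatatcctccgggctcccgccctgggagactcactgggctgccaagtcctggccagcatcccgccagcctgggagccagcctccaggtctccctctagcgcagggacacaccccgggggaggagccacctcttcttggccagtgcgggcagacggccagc

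The match, which is CTTTGAT read on the other strand, began 132 bases before a start of Upp2 and 246 bases before that of Dpyd. Another RefSeq start of Upp2, far upstream, had no such match. Of the 51 genes 46 had a RefSeq promoter, 60 promoters in all, and Dhodh, Dpys, Pfas, Rrm2b and Xdh had no entry in the table. TCF/LEF-type letters were in 5 of the 60 promoters, or 8.33%, against 7.48% of all 32851 promoters. The genes with a match were Dpyd, Tk2, Uox, Upb1 and Upp2, of which Dpyd and Upp2 were higher, Upb1 was lower and Tk2 and Uox did not pass the test. E2F-type letters (TTTCGCGC, TTTGGCGC, TTTCCCGC or TTTGGCGG), the kind found at many S phase genes, were in the promoter of Ppat alone, 1.67% of the 60 promoters against 1.96% of all. The E-box CACGTG was in 6 of the 60 promoters, or 10%, against 6.02% of all promoters, and the genes with it were Atic, Impdh2, Nme1, Paics and Tyms. The letters CCAAT were in 30.0% and 33.8%.

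Of the de novo pyrimidine genes all 3 passed the adjusted p with higher levels in β-cateninΔ(ex3)/+ livers, each by less than 2-fold. The share was 100%, against 37.4% of all genes tested. With median-ratio scaling, and also in quantile-normalized values, 2 genes passed as higher. Cad encodes the large protein that carries the first steps of the route, from glutamine and bicarbonate to dihydroorotate. Cad (ENSMUSG00000013629, chromosome 5 from 31054780 to 31078479) was at 1.21, 0.905 and 0.941 FPKM in the WT livers and at 2.15, 1.69 and 2.11 FPKM in the β-cateninΔ(ex3)/+ livers. The groups did not overlap, the FPKM ratio of the means was 1.95, and the log2 difference was 0.56 ± 0.095 (SE, limma adjusted p = 0.00318). Umps, whose protein turns orotate into UMP, was at 6.31, 5.82 and 5.60 FPKM in WT and at 8.71, 8.64 and 8.18 FPKM in β-cateninΔ(ex3)/+ livers, a log2 difference of 0.46 ± 0.058 (SE, limma adjusted p = 0.000901). Dhodh, the mitochondrial enzyme between them, was at 1.27, 0.763 and 0.917 FPKM in WT and at 1.41, 1.44 and 1.49 FPKM in β-cateninΔ(ex3)/+ livers. Its WT livers were widely spread and came close to the other group, and its log2 difference of 0.31 passed narrowly (limma adjusted p = 0.0425). The Dhodh difference did not pass after median-ratio scaling (0.21, limma adjusted p = 0.131) or in quantile-normalized values, and with a liver left out it passed only without WT replicate 1. Summed FPKM of the 3 genes were 7.46 to 8.79 in WT and 11.8 to 12.3 in β-cateninΔ(ex3)/+ livers. Cps1, the urea cycle enzyme that makes carbamoyl phosphate from ammonia in mitochondria, was taken beside Cad after its values were seen. It rose from 89.0 ± 2.60 to 177 ± 2.48 FPKM (SD, n = 3 in each group, log2 difference 0.98, limma adjusted p = 3.37e-06), and Cad made 1.13% ± 0.207 (SD, n = 3) and 1.11% ± 0.153 (SD, n = 3) of the pair's summed FPKM.

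CTP is made from UTP by CTP synthase, for which mice have the genes Ctps and Ctps2, and only Ctps2 passed the test. Ctps2 (ENSMUSG00000031360, chromosome X from 162901238 to 163032501) was at 5.96, 5.52 and 6.82 FPKM in the WT livers and at 1.35, 1.62 and 1.42 FPKM in the β-cateninΔ(ex3)/+ livers. Every mutant value was far below the WT values, with 4.17-fold higher FPKM in WT and a log2 difference of -1.52 ± 0.087 (SE, limma adjusted p = 2.93e-05). Ctps was at 1.62, 1.66 and 1.32 FPKM in WT and at 1.70, 1.44 and 1.46 FPKM in β-cateninΔ(ex3)/+ livers, and the groups overlapped, with a 95% interval of the log2 difference from -0.20 to 0.20. Ctps2 was therefore 79.8% ± 3.55 (SD, n = 3) of the pair's summed FPKM in WT and 48.9% ± 4.28 (SD, n = 3) in β-cateninΔ(ex3)/+ livers. The sum itself went from 7.17 to 8.14 FPKM down to 2.88 to 3.06 FPKM. Ctps2 is 1 of 4 X-linked genes among the 51, with Hprt, Prps1 and Prps2, and it overlaps S100g on the other strand, which was at 4.18 FPKM in WT and 0 in β-cateninΔ(ex3)/+ livers.

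The uridine and cytidine salvage genes went in different directions. Upp2, a uridine phosphorylase that splits uridine into uracil and ribose 1-phosphate, and Cmpk2, a mitochondrial UMP-CMP kinase that interferon is known to induce, rose, and Cda, the cytidine deaminase that turns cytidine into uridine, fell. Upp2 (ENSMUSG00000026839, chromosome 2 from 58567298 to 58791242), the gene with the TCF/LEF-type letters printed above, was at 1.70, 1.72 and 1.89 FPKM in the WT livers and at 6.00, 8.88 and 8.23 FPKM in the β-cateninΔ(ex3)/+ livers. The groups lay well apart, with a ratio of mean FPKM of 4.36 and a log2 difference of 1.64 ± 0.13 (SE, limma adjusted p = 0.000144). Upp1, its relative in most other tissues, was low, at 0.516 to 0.806 FPKM in WT and 0.878 to 1.06 FPKM in β-cateninΔ(ex3)/+ livers, and its log2 difference of 0.27 (limma adjusted p = 0.0408) did not pass under either other scaling. Upp2 was 73.0% ± 3.37 (SD, n = 3) of the pair in WT and 88.2% ± 3.01 (SD, n = 3) in β-cateninΔ(ex3)/+ livers.

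Cda (ENSMUSG00000028755, chromosome 4 from 138338424 to 138367992) was at 23.3, 18.5 and 21.4 FPKM in the WT livers and at 4.73, 6.81 and 4.60 FPKM in the β-cateninΔ(ex3)/+ livers. Its log2 difference, -1.80 ± 0.15 (SE, limma adjusted p = 0.000165), was the largest decrease of the 49 genes tested, although with a pseudocount of 0.1 that of Ctps2 was as large (-1.97 for Cda and -1.99 for Ctps2). Cda moved from rank 12 of 51 by mean level in WT to rank 24 in β-cateninΔ(ex3)/+ livers. Neutrophil genes fell in the same livers, S100a8 from between 82.0 and 89.7 FPKM to between 6.50 and 7.99 FPKM, and Ly6g was at 0 in each β-cateninΔ(ex3)/+ liver. Of 18 leukocyte genes tested 7 were lower and 2 were higher by both thresholds, and the part of these cells in the Cda values was not tested. Cmpk2 (ENSMUSG00000020638, chromosome 12 from 26469204 to 26479837) was at 1.07, 0.771 and 1.10 FPKM in the WT livers and at 4.81, 5.12 and 4.93 FPKM in the β-cateninΔ(ex3)/+ livers. The ratio of the means was 5.06 in FPKM, and the log2 difference was 1.59 ± 0.082 (SE, limma adjusted p = 1.88e-05). In WT livers Cmpk2 was among the lowest 6 of the 51 genes, at rank 46, and in β-cateninΔ(ex3)/+ livers it was at rank 25.

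The other kinases of this group changed by less than 2-fold. Cmpk1, the cytosolic UMP-CMP kinase, rose from 12.7 ± 0.795 to 20.3 ± 0.269 FPKM (SD, n = 3 in each group), a log2 difference of 0.64 (limma adjusted p = 0.000168). Nme1, a nucleoside diphosphate kinase, rose from 14.1 ± 0.453 to 24.5 ± 0.690 FPKM (SD, n = 3 in each group), with a log2 difference of 0.76 (limma adjusted p = 3.28e-05). Nme2, its more abundant neighbour on chromosome 11, overlapped between the groups, with an interval of the log2 difference from -0.058 to 0.14, but it passed as lower under both other scalings (-0.13 and -0.15). Nme1 went from 6.88% ± 0.385 (SD, n = 3) to 11.1% ± 0.619 (SD, n = 3) of the summed FPKM of the pair. In runs of 75 bases, 45.8% of the Nme2 sequence and 10.4% of the Nme1 sequence is shared with a read-through gene across both loci. That read-through gene was at 0 FPKM in both groups. Nme2 also shares 7.30% with Gm7730, at 18.3 and 21.8 FPKM, and 5.47% with Gm5425, at 12.6 and 9.78 FPKM. Fragments can be split between genes that share sequence. Uck1, a uridine-cytidine kinase, rose from 16.1 to 20.3 FPKM (log2 difference 0.32, limma adjusted p = 0.00258), but not after quantile normalization (0.024), and 12.8% of its sequence is shared with Gm4482. Uck2 averaged 1.58 and 1.47 FPKM and Uckl1 2.60 and 3.29 FPKM, and neither passed the test (limma adjusted p = 0.513 and 0.0638). Uckl1 overlaps Zfp512b on the same strand.

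**Figure D3:**
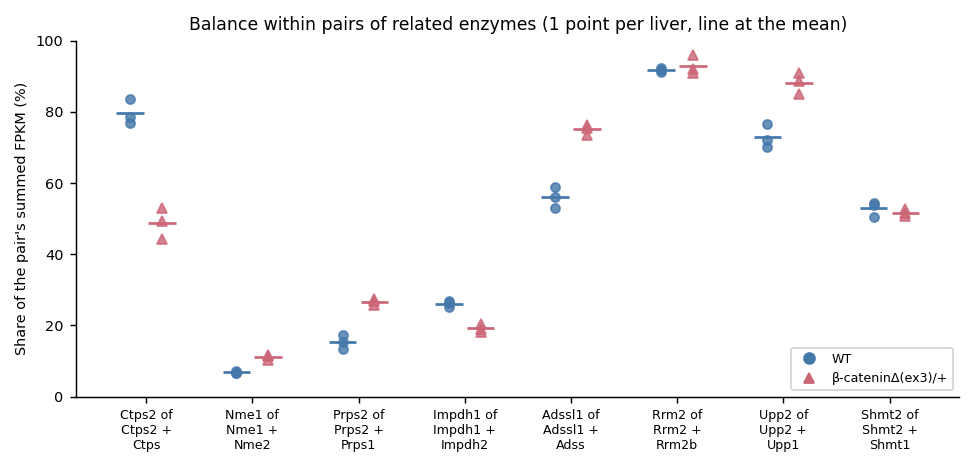
Share of the first gene in the summed FPKM of 8 pairs of related enzymes, in percent, with 1 point per liver (circles WT, triangles β-cateninΔ(ex3)/+) and a line at each group's mean. Ctps2 and Impdh1 hold a smaller share in β-cateninΔ(ex3)/+ livers, Nme1, Prps2, Adssl1 and Upp2 hold a larger share, and the points of Rrm2 and Shmt2 overlap between groups.

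The genes for deoxynucleotide and thymidylate supply did not rise as a group. Of 7 tested, 1 was higher, 1 was lower and 5 did not pass. By the adjusted p this is 14.3% in each direction, against 37.4% higher and 19.6% lower of all genes. The median log2 difference was -0.096, against 0.14 over all genes tested. Dck, the deoxycytidine kinase of salvage, was at 1.66, 1.80 and 1.21 FPKM in the WT livers and at 2.91, 3.64 and 2.76 FPKM in the β-cateninΔ(ex3)/+ livers. It was the gene that rose, with a log2 difference of 0.68 ± 0.12 (SE, limma adjusted p = 0.00435). Rrm1, the large subunit of ribonucleotide reductase, fell from 2.15 ± 0.178 to 1.58 ± 0.141 FPKM (SD, n = 3 in each group), with a log2 difference of -0.29 (limma adjusted p = 0.0168).

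Rrm2, the S phase small subunit, was at 3.83, 4.52 and 3.36 FPKM in WT and at 3.13, 3.49 and 4.12 FPKM in β-cateninΔ(ex3)/+ livers, so that the groups overlapped. Tyms, the thymidylate synthase, was at 2.18, 2.02 and 1.93 FPKM in WT and at 2.13, 2.04 and 2.18 FPKM in β-cateninΔ(ex3)/+ livers. The 95% intervals of the log2 difference, from -0.39 to 0.19 for Rrm2 and from -0.11 to 0.18 for Tyms, leave out a change of 2-fold on this scale. Tk1, the S phase thymidine kinase, averaged 5.36 and 4.82 FPKM (limma adjusted p = 0.299), and it lies within a longer gene on the other strand, Gm20708, that was at 36.9 and 33.5 FPKM. Dut, which removes dUTP, averaged 5.70 and 4.36 FPKM, and its log2 difference of -0.32 missed the threshold (limma adjusted p = 0.0550) but passed it without WT replicate 2 and after both other scalings. Tk2, the mitochondrial thymidine kinase, varied between 2.94 and 5.77 FPKM with no order by group. Dctd and Rrm2b were under the filter, at 0.184 and 0.164 FPKM and at 0.355 and 0.264 FPKM, and Rrm2b overlaps Gm3362, at 108 and 57.0 FPKM, on the same strand.

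Cell cycle genes from outside the 51 were set beside these. Of 36 tested, 16 passed the adjusted p with higher and 8 with lower levels, and 4 were higher and 0 lower by both thresholds. These are 44.4% and 22.2% by the adjusted p, against 37.4% and 19.6% of all genes, and 11.1% higher by both thresholds, against 8.17%. By the adjusted p 13 were higher and 11 lower with median-ratio scaling, and 12 were higher and 12 lower in quantile-normalized values. The median log2 difference of the 36 genes was 0.15, against 0.14 over all genes tested. Mki67, a marker of cycling cells, rose from 2.70 ± 0.0898 to 3.60 ± 0.245 FPKM (SD, n = 3 in each group), with a log2 difference of 0.31 (limma adjusted p = 0.00588), but it did not pass in quantile-normalized values (0.14). Top2a rose from 2.24 to 2.79 FPKM (limma adjusted p = 0.0340), but did not pass under either other scaling, nor without 4 of the 6 livers, each left out in turn. Pcna, the DNA polymerase clamp, was at 16.5 and 17.1 FPKM (limma adjusted p = 0.517), but it passed as lower in quantile-normalized values (-0.26). The 4 genes past both thresholds were Ccnb1, Ccnd1, Cdc20 and Plk1, named here after their values were seen, of which Ccnb1, Cdc20 and Plk1 act in mitosis and Ccnd1 in G1.

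**Figure D4:**
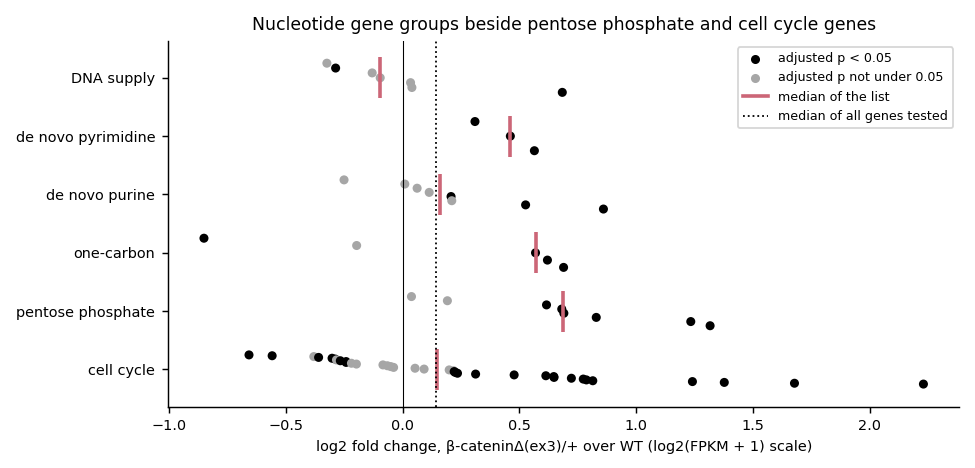
log2 fold change (β-cateninΔ(ex3)/+ over WT, log2(FPKM + 1) scale) of each gene tested in 4 nucleotide groups, the pentose phosphate genes and the cell cycle genes, black where the limma adjusted p is under 0.05, with the median of each list (thick line) and of all genes tested (dotted line). Of the DNA supply genes Dck at 0.68 and Rrm1 at -0.29 pass the test, and Dut lies at -0.32 without passing. Of the 8 pentose phosphate genes 6 pass the test, all above 0.5.

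Pyrimidine breakdown begins with Dpyd, the dihydropyrimidine dehydrogenase that sets the pace of the route, and goes on with Dpys and Upb1, and the 3 genes moved differently. Dpyd (ENSMUSG00000033308, chromosome 3 from 118562129 to 119432924), whose promoter is printed above, was at 12.1, 12.5 and 11.3 FPKM in the WT livers and at 25.9, 25.8 and 26.4 FPKM in the β-cateninΔ(ex3)/+ livers. The replicates lay close together and the groups far apart, with a ratio of 2.17 in FPKM and a log2 difference of 1.06 ± 0.049 (SE, limma adjusted p = 1.24e-05). Dpyd was near the 2-fold threshold, and its log2 difference was 0.89 with median-ratio scaling and 0.76 in quantile-normalized values. Dpys was at 60.9, 57.4 and 60.6 FPKM in WT and at 61.8, 53.7 and 53.2 FPKM in β-cateninΔ(ex3)/+ livers and did not pass (limma adjusted p = 0.315), although it passed as lower under both other scalings (-0.26 and -0.37). Upb1, the β-ureidopropionase of the last step, fell from 47.4, 47.9 and 47.6 FPKM in WT to 31.7, 32.3 and 32.0 FPKM, with a log2 difference of -0.56 ± 0.031 (SE, limma adjusted p = 2.74e-05). Upb1 overlaps Gucd1 on the other strand over its whole length. By mean FPKM, which is scaled to transcript length, Dpyd was the lowest of the 3 genes in both groups, below the 47.6 of Upb1 in WT livers and, at 26.0, below the 32.0 of Upb1 in β-cateninΔ(ex3)/+ livers.

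Of the purine route up to IMP, 3 of 8 genes passed the adjusted p, all higher, and none passed 2-fold. This is 37.5%, against 37.4% of all genes tested, and 2 genes passed as higher under each of both other scalings. Prps1 and Prps2 make phosphoribosyl pyrophosphate, the sugar that both routes use. Prps2 (ENSMUSG00000025742, chromosome X from 167346322 to 167382749) was at 1.58, 1.3 and 1.68 FPKM in the WT livers and at 3.44, 3.58 and 3.67 FPKM in the β-cateninΔ(ex3)/+ livers. Its FPKM ratio was 2.35 and its log2 difference 0.86 ± 0.074 (SE, limma adjusted p = 0.000178), and with a pseudocount of 0.1 in place of 1 the difference was 1.19, past 2-fold. Prps1 rose from 8.36 to 9.81 FPKM with a log2 difference of 0.21 (limma adjusted p = 0.0247) that was 0.050 with median-ratio scaling and -0.053 in quantile-normalized values. Prps2 went from 15.4% ± 1.93 (SD, n = 3) to 26.7% ± 0.980 (SD, n = 3) of the pair's summed FPKM. Gart, which carries several steps of the ring synthesis on a single protein, rose from 3.56 ± 0.175 to 5.57 ± 0.328 FPKM (SD, n = 3 in each group), with a log2 difference of 0.53 (limma adjusted p = 0.000656).

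The other steps did not pass. Ppat, the amidotransferase that commits to the route, was at 2.03, 1.99 and 2.20 FPKM in WT and at 2.01, 2.53 and 2.11 FPKM in β-cateninΔ(ex3)/+ livers (limma adjusted p = 0.537). Paics, which shares its promoter region with Ppat head to head, was at 29.8, 54.1 and 29.2 FPKM in WT and at 29.6, 30.5 and 30.5 FPKM in β-cateninΔ(ex3)/+ livers. WT replicate 2 alone stood apart, and the log2 difference of -0.25 became 0.034 without it. Ppat did not show this peak in WT replicate 2. Pfas averaged 0.841 and 0.854 FPKM, Adsl 2.45 and 2.99 FPKM and Atic 3.18 and 3.52 FPKM, with limma adjusted p-values of 0.919, 0.160 and 0.183. The summed FPKM of the 8 genes, 50.8 to 76.1 in WT and 57.2 to 60.3 in β-cateninΔ(ex3)/+ livers, is led by Paics.

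From IMP the routes part to AMP and GMP. Adss, the adenylosuccinate synthase, rose from 5.05 ± 0.642 to 7.04 ± 0.584 FPKM (SD, n = 3 in each group), with a log2 difference of 0.41 (limma adjusted p = 0.0129). It did not pass under either other scaling (0.26 with median-ratio scaling). Impdh1, an IMP dehydrogenase, fell from 2.72 ± 0.250 to 2.02 ± 0.230 FPKM (SD, n = 3 in each group), with a log2 difference of -0.30 (limma adjusted p = 0.0232). Impdh2, the more abundant form, averaged 7.74 and 8.46 FPKM and did not pass (limma adjusted p = 0.227), and 34.9% of its sequence is shared with a pseudogene at 6.70 and 7.61 FPKM. Gmps averaged 4.09 and 4.01 FPKM, with an interval of the log2 difference from -0.14 to 0.094, and passed as lower under both other scalings (-0.16 and -0.21). Impdh1 was 26.0% ± 0.785 (SD, n = 3) of its pair in WT and 19.3% ± 1.15 (SD, n = 3) in β-cateninΔ(ex3)/+ livers. Adssl1, the relative of Adss that is best known from muscle and was taken beside it after its values were seen, rose from 6.39 ± 0.0485 to 21.3 ± 1.10 FPKM (SD, n = 3 in each group, log2 difference 1.59, limma adjusted p = 2.42e-06). Adssl1 went from 56.0% to 75.2% of the pair's summed FPKM.

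In purine salvage Adk and Aprt passed the adjusted p and Hprt did not. Adk, the adenosine kinase, was at 23.7, 24.7 and 25.0 FPKM in the WT livers and at 41.8, 41.2 and 40.7 FPKM in the β-cateninΔ(ex3)/+ livers. The groups were far apart beside the spread within them, with a log2 difference of 0.73 ± 0.037 (SE, limma adjusted p = 1.81e-05). Aprt, which salvages adenine, was at 17.4, 15.9 and 17.9 FPKM in WT and at 26.0, 24.1 and 19.2 FPKM in β-cateninΔ(ex3)/+ livers. β-cateninΔ(ex3)/+ replicate 3 came near the WT livers, and the log2 difference of 0.40 (limma adjusted p = 0.0259) did not pass under either other scaling, nor without 4 of the 6 livers, each left out in turn. Hprt, which salvages hypoxanthine and guanine, averaged 38.1 and 37.0 FPKM, with an interval of the log2 difference from -0.18 to 0.10, but it passed as lower under both other scalings (-0.21 and -0.30).

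In purine breakdown Xdh showed the largest change of the 49 genes tested. Xdh encodes xanthine dehydrogenase, which turns hypoxanthine into xanthine and xanthine into uric acid. Xdh (ENSMUSG00000024066, chromosome 17 from 73883895 to 73950196) was at 2.35, 2.58 and 2.57 FPKM in the WT livers and at 24.4, 25.2 and 24.3 FPKM in the β-cateninΔ(ex3)/+ livers. The lowest mutant value was several times the highest WT value, the ratio of the means was 9.86 in FPKM, and the log2 difference was 2.87 ± 0.048 (SE, limma adjusted p = 1.80e-07). Over all alternatives of scaling, filter, pseudocount and left-out livers the log2 difference of Xdh was between 2.64 and 3.25. Xdh moved from rank 32 of 51 by mean level to rank 13.

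The steps on either side of Xdh moved less. Pnp, the purine nucleoside phosphorylase, rose from 33.0 ± 0.687 to 43.7 ± 1.39 FPKM (SD, n = 3 in each group), with a log2 difference of 0.39 (limma adjusted p = 0.000354), and 16.1% of its sequence is shared with Gm49342 and 8.07% with Pnp2. Ada, the adenosine deaminase, averaged 0.886 and 1.18 FPKM (limma adjusted p = 0.144). Uox was at 86.2, 86.9 and 86.7 FPKM in WT and at 92.5, 89.3 and 89.3 FPKM in β-cateninΔ(ex3)/+ livers, without overlap, but its log2 difference of 0.060 did not pass (limma adjusted p = 0.139). Its direction turned under both other scalings, where it passed as lower (-0.11 and -0.21, limma adjusted p = 0.0214 and 0.00162). By mean FPKM Xdh was the lowest of Pnp, Xdh and Uox in both groups, at 2.50 beside 86.6 for Uox in WT livers and at 24.6 beside 90.4 for Uox in β-cateninΔ(ex3)/+ livers.

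**Figure D5:**
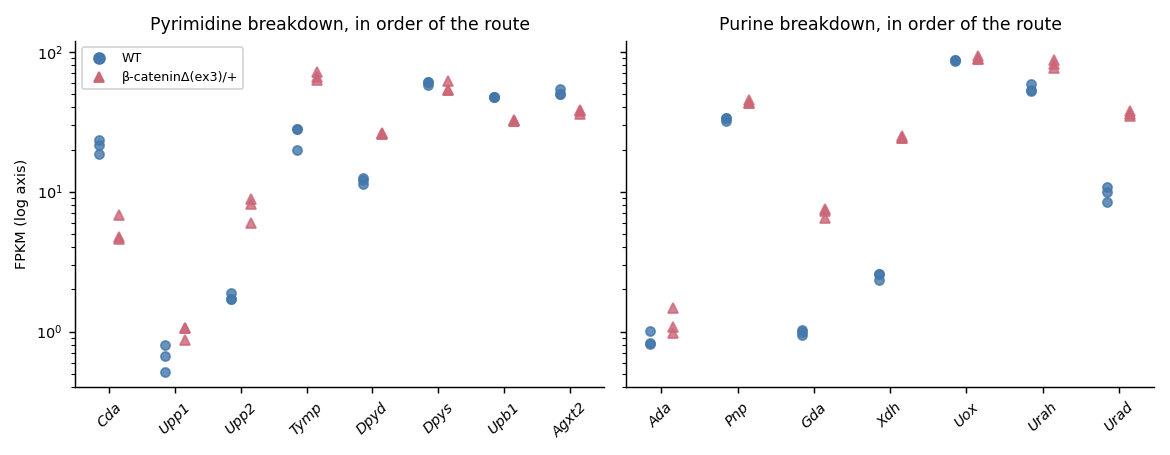
FPKM on a log axis of the genes of pyrimidine breakdown (left) and purine breakdown (right), in the order of the routes, with 1 point per liver (circles WT, triangles β-cateninΔ(ex3)/+). Upp2, Tymp and Dpyd lie higher and Cda, Upb1 and Agxt2 lower in β-cateninΔ(ex3)/+ livers on the left, while Gda, Xdh and Urad lie higher on the right and Uox stays near 90 FPKM.

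Of the 5 folate genes 3 rose, 1 fell and 1 did not pass. By the adjusted p this is 60% higher and 20% lower, against 37.4% and 19.6% of all genes. Shmt1 and Shmt2, the serine hydroxymethyltransferases of cytosol and mitochondria, rose from 36.9 ± 0.797 to 60.1 ± 1.01 FPKM and from 41.6 ± 3.31 to 64.4 ± 3.09 FPKM (SD, n = 3 in each group). Their log2 differences were 0.69 and 0.62 (limma adjusted p = 1.74e-05 and 0.000552). Mthfd1, the cytosolic enzyme that makes formyltetrahydrofolate for purines, rose from 27.0 ± 1.09 to 40.6 ± 1.49 FPKM (SD, n = 3 in each group, log2 difference 0.57, limma adjusted p = 0.000156). These 3 genes rose by ratios of 1.5 to 1.63 in FPKM and passed under both other scalings, and Shmt2 kept 52.9% ± 2.21 (SD, n = 3) and 51.7% ± 0.953 (SD, n = 3) of the Shmt pair.

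Mthfd1l and Mthfd2, mitochondrial enzymes like Shmt2, were low in all livers. Mthfd1l, which releases formate from mitochondria, was at 1.32, 1.16 and 1.59 FPKM in the WT livers and at 0.252, 0.292 and 0.369 FPKM in the β-cateninΔ(ex3)/+ livers. It fell by a log2 difference of -0.85 ± 0.087 (SE, limma adjusted p = 0.000364), under 2-fold on this scale, although its FPKM was 4.46-fold higher in WT, and with a pseudocount of 0.1 the difference was -1.85. Mthfd2, best known from embryonic and tumor cells, was at 1.44, 1.54 and 1.48 FPKM in WT and at 0.940, 1.28 and 1.3 FPKM in β-cateninΔ(ex3)/+ livers, without overlap and without passing the test (limma adjusted p = 0.0899), but it passed as lower under both other scalings (-0.29 and -0.30). The summed FPKM of the 5 folate genes was 104 to 113 in WT and 163 to 173 in β-cateninΔ(ex3)/+ livers, a ratio of the means of 1.54, the highest ratio of the 10 roles.

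Genes of nucleotide metabolism outside the 51 were counted from a list of 66, of which 54 passed the filter. By both thresholds 9 were higher and 1 was lower, or 16.7% and 1.85% of those tested, against 8.17% and 4.52% of all genes. By the adjusted p alone 27 were higher and 16 lower, in all 79.6% of those tested against 57.0% of all genes. Their median log2 difference was 0.25, and after the other scalings the second split was 20 and 17 or 17 and 19. The largest increases were Gda, Aox1 and Urad. Gda, the guanine deaminase that feeds guanine into xanthine just before the Xdh step, was at 0.995, 1.02 and 0.947 FPKM in WT and at 7.29, 7.53 and 6.52 FPKM in β-cateninΔ(ex3)/+ livers (log2 difference 2.03, limma adjusted p = 2.79e-06). Aox1, an aldehyde oxidase of the same enzyme family as Xdh, went from between 0.846 and 0.984 FPKM to between 5.47 and 6.01 FPKM (log2 difference 1.84, limma adjusted p = 3.22e-06). Urad, which acts after Uox and Urah toward allantoin, went from between 8.38 and 10.8 FPKM to between 35.0 and 37.6 FPKM (log2 difference 1.81, limma adjusted p = 1.63e-05). Ak4, a mitochondrial adenylate kinase, was the gene that was lower by both thresholds, falling from 14.8 ± 0.483 to 4.56 ± 0.319 FPKM (SD, n = 3 in each group, log2 difference -1.51, limma adjusted p = 6.40e-06).

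Further steps of both breakdown routes are given here although they were chosen after their values were seen. Urah rose from 54.7 to 81.9 FPKM (log2 difference 0.58, limma adjusted p = 0.000614). Tymp, the thymidine phosphorylase, rose from 25.2 ± 4.57 to 67.2 ± 4.73 FPKM (SD, n = 3 in each group, log2 difference 1.39, limma adjusted p = 0.000327). Agxt2, an aminotransferase that acts on β-aminoisobutyrate, fell from 51.3 to 37.3 FPKM (log2 difference -0.45, limma adjusted p = 0.000387).

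The pentose phosphate pathway supplies ribose 5-phosphate to Prps1 and Prps2 and NADPH. Of its genes 9 were found and 8 passed the filter and 6 of these passed the adjusted p, all higher, or 75% against 37.4% of all genes. Under each of both other scalings 6 also passed as higher, and the list had a median log2 difference of 0.69. Taldo1, the transaldolase, rose from 28.4 ± 1.46 to 72.3 ± 3.02 FPKM (SD, n = 3 in each group), and Tkt, the transketolase, from 8.67 ± 0.299 to 21.7 ± 0.648 FPKM (SD, n = 3 in each group). Their log2 differences were 1.32 and 1.23 (limma adjusted p = 7.00e-06 and 4.91e-06), and these were the 2 genes past both thresholds, of which 1 stayed past them in quantile-normalized values.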

How the data were processed

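RNA from 3 WT and 3 β-cateninΔ(ex3)/+ livers was analysed, with groups from the sample labels. Per the labels, poly(A) RNA was made into dUTP-marked libraries and sequenced as paired ends on a NovaSeq. The authors deposited FPKM per gene and liver, not counts. The submitters' processing notes name cutadapt 1.9, HISAT2 2.0.4, StringTie 1.3.4d, DESeq2 and edgeR, without roles. The genome build is not given in the sources used here, but 28874 genes have the coordinates of GENCODE M21 (GRCm38).

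DESeq2, with which the authors tested the genes, needs counts and was not used. Here, log2(FPKM + 1) of the 13243 genes with a mean of at least 0.5 FPKM was fitted over the 6 livers with limma 3.58.1 (R 4.3.3, eBayes with a trend, Benjamini-Hochberg adjustment), keeping the study's thresholds, an adjusted p under 0.05 and a change of at least 2-fold. Steps in low values gave depth estimates of 24.5 to 24.8 M fragments for WT and 17.2 to 19.5 M for β-cateninΔ(ex3)/+ livers. Only 8.30% to 35.9% of these values lay on a step, against 4% by chance, so whole reads were not recovered and no counting intervals are given.

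The 51 genes and the other lists were chosen with earlier results of these data known. Named are all 51, the 3 largest changes past both thresholds in each direction of the other nucleotide and pentose phosphate lists, the sex-linked genes, H19, Igf2, Afp, Mki67, Top2a and Pcna. Genes named outside this rule are marked in the text, except Cyp2e1, Lect2, Tcf7, Scd2, S100a8, S100a9, Ly6g, Clec4f, Cd68 and the genes that overlap or share sequence with the 51, which were also taken after values were seen. Alternatives were a pseudocount of 0.1, no filter, a mean of at least 1 FPKM, quantile normalization, median-ratio scaling, a variance fit with no trend, a replicate block and each liver left out. Promoters are from RefSeq (GRCm38.p6). Python 3.11.15, pandas 2.3.3, numpy 2.4.6 and matplotlib 3.10.9 were used.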

Additional observations from a re-analysis of the deposited data

How the results depend on the processing

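Of 634 values of the 49 genes under alternatives, 556 kept their direction and their side of the adjusted p threshold, 36 lost the call, 14 gained one and 28 changed sign. Median-ratio scaling and quantile normalization moved the median log2 difference of all genes tested by -0.12 and -0.16, and under them 13 and 14 of the genes had an adjusted p under 0.05 and were lower, in place of 6. Under both scalings, in that order, the log2 difference changed sign for Ctps (-0.10 and -0.11), Nme2 (-0.13 and -0.15), Tyms (-0.084 and -0.11), Tk2 (-0.10 and -0.15), Ppat (-0.057 and -0.085), Pfas (-0.070 and -0.067), Atic (-0.021 and -0.067), Impdh2 (-0.038 and -0.14) and Uox (-0.11 and -0.21), and for Prps1 after quantile normalization (-0.053). With livers left out in turn, differences ranged from -0.059 to 0.037 for Ctps, -0.15 to 0.26 for Tk2, -0.0068 to 0.11 for Ppat, -0.036 to 0.037 for Pfas and -0.40 to 0.034 for Paics. The call of Dpyd was lost under both scalings, which left 3 genes higher by both thresholds, and a pseudocount of 0.1 gave 5 higher with Prps2 and 3 lower with Mthfd1l. With each liver left out these counts were 4 and 2. Of the other nucleotide genes 3 were lower by both thresholds at a pseudocount of 0.1, 3 after quantile normalization, 2 with median-ratio scaling and 1 to 2 with a liver left out (2 without WT replicate 2), in place of 1.

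The replicate numbers come from the labels, and livers with the same number deviated together by correlations of 0.0268, 0.0213 and -0.00540 over genes, so the numbers do not pair the livers. With the number as a replicate block, 4 of the genes were higher and 2 lower by both thresholds, and 19 were higher and 5 lower by the adjusted p alone, without Dhodh, Upp1, Prps1 and Impdh1. Depth limits the genes under 2 FPKM most, and FPKM keep no counts from which this limit could be computed.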
